A study of Mus musculus with 12 samples.

Results

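The genes described here are 10 enzymes and carriers that bring long-chain fatty acids into the mitochondrion and break them down there. They were chosen by name, with earlier results of these data known. The genes are Cpt1a, Slc25a20, Cpt2 and Crat of the carnitine shuttle, the acyl-CoA dehydrogenases Acadvl, Acadl and Acadm, the trifunctional protein subunits Hadha and Hadhb, and Decr1. Every probe set (the group of array probes summarised as 1 value) that carries the symbol of 1 of these genes and no other is reported. That gave 14 probe sets for 9 genes, of 28898 single-symbol probe sets for 17097 genes in all. Cpt1a, Cpt2, Acadm and Acadvl had 1 probe set each, and Slc25a20, Crat, Acadl, Hadhb and Decr1 had 2. Hadha had no single-symbol probe set in the annotation used here and is not analysed here.

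The study measured RNA of dendritic cells (DCs), the antigen-presenting cells of the spleen, on 12 Affymetrix arrays. Mice were 10-week-old C57BL/6 males, either wild type (WT) or knockouts for the microRNA miR-142 (KO), and WT and KO were littermates. The 4 groups of 3 arrays were unstimulated WT, unstimulated KO, WT given lipopolysaccharide (LPS) and KO given LPS, LPS being a bacterial cell wall component that activates DCs. Each group is labelled as biological replicates, with DCs taken from single spleens by positive selection. All groups share that strain, sex, age and selection. The sources used here do not state the LPS dose or duration, nor whether the deletion spans all tissues. The labels name DCs in every field but the free-text description, which has T cells. All 12 measured genes of a 15-gene DC marker list read above the median of all values (2.87) on all 12 arrays, and their mean log2 level was 6.89 to 7.17 on 11 arrays and 6.43 on KO LPS array 2. Of the T cell markers, 6 of 10 measured genes did so, with a list mean of 3.34 to 3.95. Of the B and plasma cell markers 8 of 9 did so (4.80 to 5.90), and of the macrophage and monocyte markers 11 of 12 (5.47 to 6.40). The lists use different probe sets, so their levels do not rank the cell types.

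Long-chain fatty acids are activated to acyl-CoA outside the inner mitochondrial membrane, which acyl-CoA cannot cross. CPT1 swaps the CoA for carnitine, the carrier encoded by Slc25a20 exchanges acylcarnitine for carnitine across the membrane, and CPT2 restores the acyl-CoA inside. Beta-oxidation then removes the chain's carbons in repeated rounds of dehydrogenation, hydration, a further dehydrogenation and cleavage, yielding acetyl-CoA and reduced cofactors for respiration. DCs have been described as leaving oxidative metabolism for glycolysis when LPS activates them, and Cpt1a, the liver-type CPT1 isoform, has been reported as a target of miR-142.

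The deleted microRNA gives 2 mature strands, shown because the genotype contrast removes both. Their sequences are those of RefSeq on GRCm38.p6, at chr11:87756903-87756925 and chr11:87756867-87756887, both on the plus strand. They are written 5′ to 3′ with the seed, bases 2 to 8, in capitals.
mmu-miR-142a-3p: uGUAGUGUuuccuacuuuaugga
mmu-miR-142a-5p: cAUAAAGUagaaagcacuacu
The seeds differ, GUAGUGU in the 3p strand and AUAAAGU in the 5p strand, and they pair with the DNA letters ACACTAC and ACTTTAT. Transcript sequences of the 10 genes were not used here, so no target site was looked for.

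Promoter windows of 250 bases before to 50 bases after the annotated start were listed in RefSeq (GRCm38.p6) for 8 of the 10 genes; Crat and Decr1 had no entry. For 7 of them that start was the outermost one of the gene, and for Cpt1a it lay 975 bases inside the gene's outermost annotated start. Both strands were searched for the GC box (GGGCGG), the CCAAT box (CCAAT) and the nuclear receptor half-site (AGGTCA). The promoters of Cpt1a and Cpt2, the first and last enzymes of the shuttle, and of Hadhb, whose window overlaps that of Hadha, are printed 5′ to 3′ on the gene's strand with the matches in capitals.
Cpt1a, chr19:3323051-3323350, plus strand: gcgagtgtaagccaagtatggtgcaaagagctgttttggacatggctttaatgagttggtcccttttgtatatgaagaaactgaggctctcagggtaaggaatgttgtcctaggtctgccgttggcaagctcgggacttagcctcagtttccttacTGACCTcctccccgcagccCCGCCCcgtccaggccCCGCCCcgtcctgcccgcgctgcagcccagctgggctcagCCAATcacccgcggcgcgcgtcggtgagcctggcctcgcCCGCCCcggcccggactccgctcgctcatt
Cpt2, chr4:107923540-107923839, minus strand: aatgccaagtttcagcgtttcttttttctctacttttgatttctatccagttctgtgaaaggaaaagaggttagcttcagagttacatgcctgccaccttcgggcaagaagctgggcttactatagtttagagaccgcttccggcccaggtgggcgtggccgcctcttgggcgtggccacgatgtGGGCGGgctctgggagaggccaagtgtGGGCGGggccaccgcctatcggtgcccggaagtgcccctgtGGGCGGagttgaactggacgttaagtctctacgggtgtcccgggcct
Hadhb, chr5:30155003-30155302, plus strand: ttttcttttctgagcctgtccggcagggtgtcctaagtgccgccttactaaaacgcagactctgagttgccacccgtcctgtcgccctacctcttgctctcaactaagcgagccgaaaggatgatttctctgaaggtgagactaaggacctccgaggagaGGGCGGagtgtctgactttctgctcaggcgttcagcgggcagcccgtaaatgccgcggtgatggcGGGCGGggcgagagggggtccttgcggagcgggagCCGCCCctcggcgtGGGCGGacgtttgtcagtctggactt
The Cpt1a window held 3 GC boxes, 1 CCAAT box and 1 half-site. The Cpt2 window held 3 GC boxes and neither other motif, and the Hadhb window held 4 GC boxes. A GC box was in 6 of the 8 windows, against 35.7% of 32851 promoters of the same length. CCAAT was in 1 of 8 windows against 37.4%, and AGGTCA in 3 of 8 against 16.3%. No matches overlapped in the printed windows. Hadha and Hadhb lie on opposite strands of chromosome 5 with 272 bases between them, and their promoter windows share 228 bases. The 1 GC box of the Hadha window is the same site as the first one printed for Hadhb, so the 6 windows do not all hold separate sites.

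Values are log2 signals as deposited, so a difference of 1 is a 2-fold change. Differences were tested with limma across all 28898 probe sets, p-values were adjusted by Benjamini-Hochberg within each contrast, and an adjusted p under 0.05 counts as called. The number after ± is the moderated standard error of a log2 fold change, and each group has n = 3. P-values measure the spread between these arrays. Probe sets differ in how well they bind, so differences are taken between arrays within a probe set. Signals of different probe sets are set side by side to name a gene's brighter one and to place values against the median of all values. Over all probe sets limma called 47 (0.163%) for KO against WT unstimulated, 93 (0.322%) for KO against WT with LPS and 614 (2.12%) for KO against WT averaged over both stimulations. It called 37 (0.128%) for LPS in WT and 87 (0.301%) for LPS in KO.

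KO LPS array 2 stood apart from the others. Its Pearson correlation with the other arrays over all single-symbol probe sets was 0.93 to 0.956, against 0.962 to 0.99 among the rest. On it the actin control's 3′ probe set exceeded the middle one by 0.94 log2, against 0.02 to 0.16 elsewhere, and that of Gapdh by 3.04 against 1.53 to 1.86, a measure of RNA quality. It held the highest of the 12 values in 6 of 14 member probe sets (42.86%, against 18.22% of all probe sets). In 1 it held the lowest (7.14%, against 23.95% of all). Results it moves are therefore given with and without it. Its part in them was otherwise not tested.

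Markers of other cell types also moved with genotype. The marker lists were chosen with earlier results of these data known, so their counts are descriptive. Neutrophil markers averaged 3.33 to 4.42 on the unstimulated WT arrays and 5.62 to 8.08 on the unstimulated KO arrays, and 3.33 to 4.40 against 5.52 to 7.46 with LPS. In the averaged contrast, where 2.36% of all genes were called, 9 of 12 measured neutrophil markers were called, all higher in KO. Natural killer (NK) cell markers averaged 3.58 to 4.29 on the 6 WT arrays and 5.29 to 5.56 on the 6 KO arrays, with 10 of 13 called higher. The DC, T cell, and B and plasma cell lists had 1, 1 and 2 called members of 12, 10 and 9 measured. Lower in KO were Xcr1 of the DC list (-0.54 ± 0.11), Cd4 of the T cell list (-0.64 ± 0.12) and Jchain (-3.54 ± 0.30). The B cell gene Ms4a1 was higher (0.87 ± 0.15). The macrophage, erythroid and platelet lists had 0 called members. Of their measured genes 4 of 12, 3 of 7 and 5 of 8 had an unadjusted p under 0.05 (limma), against 16.3% of all genes. Without KO LPS array 2 the DC list had 2 called and the platelet list 3, among them Ppbp at 2.20 and Pf4 at 1.90 (adjusted p = 0.0365 and 0.0287), and the counts of the other 6 lists were the same. The spiked hybridisation control bioB, which is added to every sample, averaged 8.56 ± 0.23 (SD, n = 3) in unstimulated WT, 7.85 ± 0.31 in unstimulated KO, 8.03 ± 0.12 in WT with LPS and 7.69 ± 0.48 in KO with LPS. These RNAs come from bulk cells, so more cells of a type and more RNA per cell cannot be told apart. Their part in the values below was not tested.

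In the fit without a replicate block, 2 of the 14 probe sets passed the test in the averaged KO versus WT contrast. These were Cpt2 and 1 of the Decr1 probe sets, both higher in KO. None passed in the other 5 contrasts. The 2 of 14 stand against 1.35% of all probe sets called higher. The members were chosen with earlier results of these data known, so this comparison carries no test. The call for both was lost when arrays with the same replicate number within a genotype were treated as a random block, with adjusted p = 0.0756 for Cpt2 and 0.0741 for Decr1 (limma, duplicateCorrelation).

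**Figure D1:**
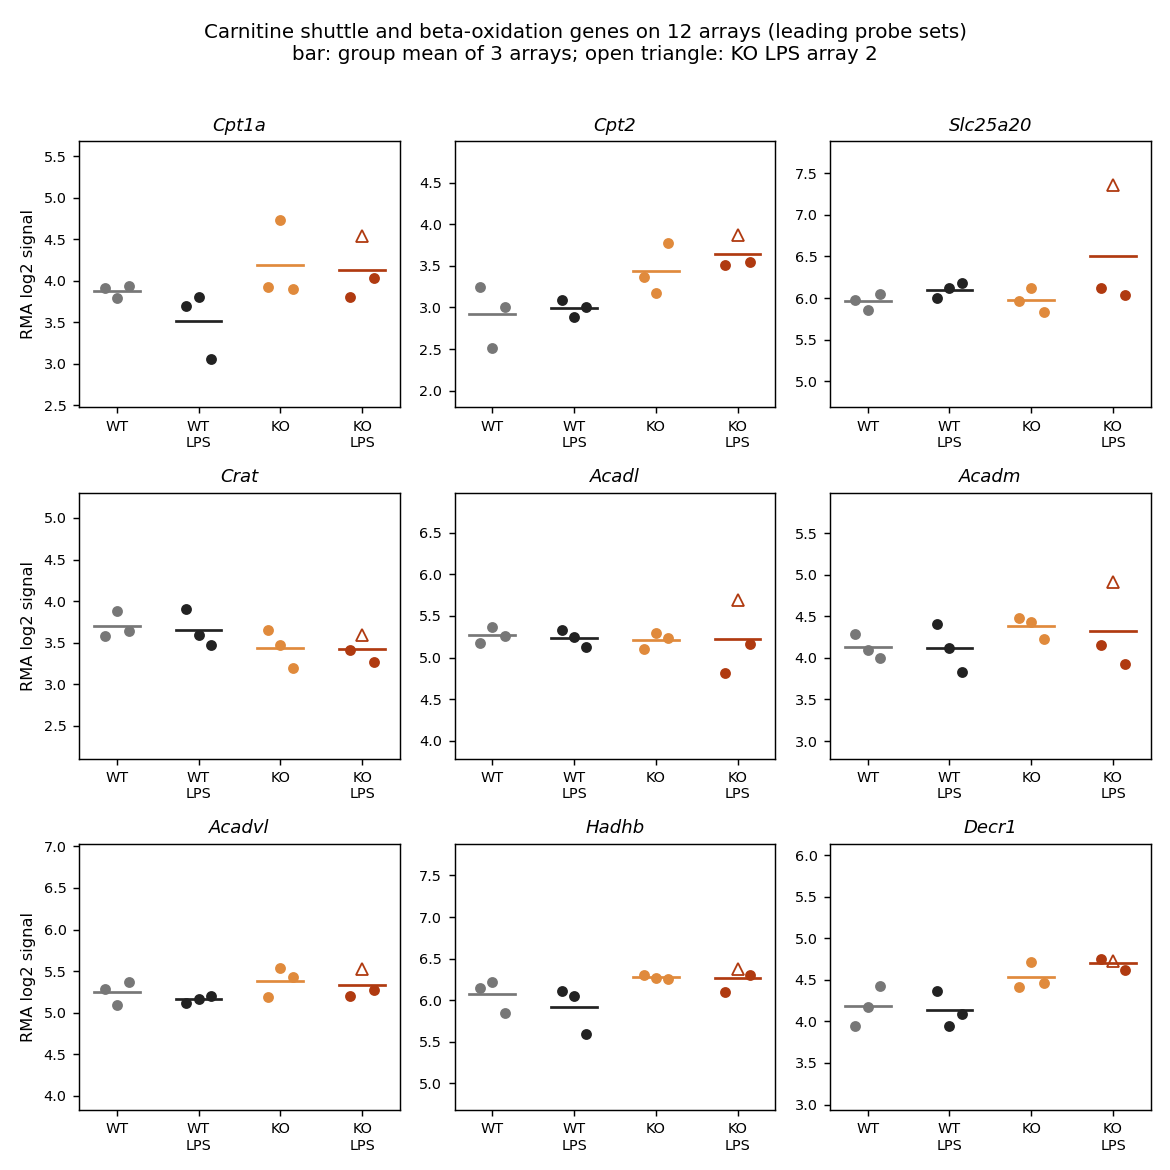
Log2 signal (vertical axis) of the brighter or sole probe set of the 9 measured genes on the 12 arrays, by group along the horizontal axis (WT, WT with LPS, KO, KO with LPS). Points are arrays, horizontal bars are means of 3 arrays and the open triangle is KO LPS array 2. Cpt2 lay at 3.51 to 3.87 on the KO LPS arrays and at 2.88 to 3.09 on the WT LPS arrays.

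The carnitine shuttle comes first in the order of the pathway. Cpt1a, at chr19:3322326-3385735 (GRCm38.p6), makes the acylcarnitine and is the step that malonyl-CoA inhibits. Its probe set (1460409_PM_at) read 3.91, 3.79 and 3.94 on the unstimulated WT arrays, 3.92, 4.73 and 3.90 on the unstimulated KO arrays, 3.69, 3.80 and 3.05 on the WT LPS arrays and 3.81, 4.54 and 4.04 on the KO LPS arrays. Array 2 was the highest in both KO groups, array 3 was the lowest in the WT LPS group, and the genotypes overlapped without LPS. With LPS the 3 KO arrays all lay above the 3 WT arrays, the nearest pair being 3.81 and 3.80. Of all probe sets, 6.89% had their KO LPS arrays wholly above the WT LPS arrays in this way.

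Cpt1a differed between KO and WT by 0.30 ± 0.25 unstimulated (adjusted p = 0.829, limma) and by 0.61 ± 0.25 with LPS (adjusted p = 0.315). Averaged over both, the difference was 0.46 ± 0.18, a 95% interval of 0.07 to 0.85 before adjustment, with adjusted p = 0.232. Without KO LPS array 2 it was 0.41 with LPS (adjusted p = 0.682) and 0.36 on average (adjusted p = 0.328). No contrast called Cpt1a, in limma or in any of the alternative fits.

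Slc25a20, the carnitine-acylcarnitine carrier, was measured by 2 probe sets that did not move together. The first (1423108_PM_at) read 5.98, 5.85 and 6.05 in unstimulated WT, 5.96, 6.12 and 5.83 in unstimulated KO, 6.00, 6.12 and 6.18 in WT with LPS and 6.12, 7.37 and 6.04 in KO with LPS. Apart from the 7.37 of KO LPS array 2, its values lay between 5.83 and 6.18. The KO minus WT difference with LPS was 0.41 ± 0.26 with that array and -0.02 without it (limma adjusted p = 0.514 and 0.981).

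The other Slc25a20 probe set (1423109_PM_s_at) read 4.97, 4.85 and 5.08 in unstimulated WT, 4.86, 4.94 and 4.85 in unstimulated KO, 5.44, 5.36 and 4.57 in WT with LPS and 4.81, 4.32 and 5.14 in KO with LPS. KO LPS array 2, the highest of 12 on the first probe set, was the lowest on this one. Over the 12 arrays the 2 probe sets correlated at r = -0.60, and at 0.01 over the 11 arrays without it. The KO minus WT difference with LPS was -0.37 ± 0.23 here, and -0.15 without array 2, neither of them called. The "_s_" in the probe set's name marks probes that can bind more than 1 transcript.

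Cpt2, which rebuilds acyl-CoA on the matrix side and lies at chr4:107903982-107923589 (GRCm38.p6), was higher in KO. Its probe set (1416772_PM_at) read 3.24, 2.52 and 3.00 in unstimulated WT, 3.37, 3.18 and 3.77 in unstimulated KO, 3.09, 2.88 and 3.01 in WT with LPS and 3.51, 3.87 and 3.55 in KO with LPS. The genotypes did not overlap with LPS. Without it KO array 2 (3.18) lay below WT array 1 (3.24). Group means were 2.92 ± 0.37 and 3.44 ± 0.30 (SD) for unstimulated WT and KO, and 2.99 ± 0.11 and 3.64 ± 0.20 with LPS. Both WT means lay near the median of all values (2.87), and unstimulated WT array 2 (2.52) lay below it.

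The averaged KO minus WT difference of Cpt2 was 0.58 ± 0.14 log2, or 1.5-fold, with a 95% interval of 0.29 to 0.88 and adjusted p = 0.0465 (limma). Within each stimulation it was 0.52 ± 0.19 (adjusted p = 0.455) and 0.65 ± 0.19 (adjusted p = 0.183). The averaged call sits close to the threshold and was lost with the random block (limma adjusted p = 0.0756). Without KO LPS array 2 it was 0.53 with adjusted p = 0.0504, and among the 12 fits that leave out 1 array the call held only without WT unstimulated array 1 or KO LPS array 3. In the other 10 the adjusted p was 0.0504 to 0.113, and the difference stayed between 0.48 and 0.67 in all 20 alternative fits.

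Crat, carnitine acetyltransferase, moves short acyl groups such as acetyl between CoA and carnitine. One probe set (1448544_PM_at) read 3.59, 3.88 and 3.63 in unstimulated WT, 3.65, 3.47 and 3.20 in unstimulated KO, 3.91, 3.59 and 3.47 in WT with LPS and 3.41, 3.59 and 3.27 in KO with LPS. Its averaged KO minus WT difference was -0.25 ± 0.11 (limma adjusted p = 0.287), and -0.29 without KO LPS array 2. The KO arrays tended low, and the groups overlapped in each stimulation until KO LPS array 2 was left out, when the KO LPS arrays lay below the WT LPS arrays, as 14.7% of all probe sets then did.

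The other Crat probe set (1417008_PM_at) had the opposite sign. It read 2.27, 2.18 and 2.25 in unstimulated WT, 2.44, 2.77 and 2.42 in unstimulated KO, 2.30, 2.33 and 2.33 in WT with LPS and 2.45, 2.54 and 2.34 in KO with LPS, under the median of all values throughout. All 6 KO arrays lay above all 6 WT arrays, which 1.6% of all probe sets did in that direction (2.03% without KO LPS array 2). The averaged difference was 0.22 ± 0.08 with limma adjusted p = 0.186. The 2 Crat probe sets correlated at r = -0.38 over 12 arrays and -0.42 over 11, so the gene has no single direction here.

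The acyl-CoA dehydrogenases open each round of beta-oxidation, for very long, long and medium chains respectively. Acadvl (1424184_PM_at) read 5.29, 5.09 and 5.36 in unstimulated WT, 5.18, 5.54 and 5.43 in unstimulated KO, 5.11, 5.16 and 5.21 in WT with LPS and 5.20, 5.53 and 5.27 in KO with LPS. The groups overlapped in every pairwise comparison. The averaged KO minus WT difference was 0.15 ± 0.09, and 0.11 without KO LPS array 2 (limma adjusted p = 0.427 and 0.618).

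Acadl, the long-chain dehydrogenase, read 5.18, 5.37 and 5.26 in unstimulated WT, 5.11, 5.30 and 5.24 in unstimulated KO, 5.34, 5.25 and 5.12 in WT with LPS and 4.81, 5.69 and 5.16 in KO with LPS (1448987_PM_at). The KO LPS group thus held both the lowest and the highest of the 12 arrays, the highest being array 2. The averaged KO minus WT difference was -0.03 ± 0.12, and -0.15 without that array. With LPS it was -0.01 with the array and -0.25 without it (limma adjusted p = 0.982 and 0.589). The other Acadl probe set (1448988_PM_at) was dim, at 1.39 to 1.77 on all 12 arrays and below the median of all values in every group. Its averaged difference was 0.09 ± 0.07, and the 2 probe sets correlated at r = -0.23. Neither was called in any contrast.

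Acadm, the medium-chain dehydrogenase (1415984_PM_at), read 4.29, 4.09 and 4.0 in unstimulated WT, 4.48, 4.44 and 4.23 in unstimulated KO, 4.41, 4.12 and 3.83 in WT with LPS and 4.15, 4.92 and 3.92 in KO with LPS. KO LPS array 2 was the highest of the 12. The averaged difference was 0.23 ± 0.16, and 0.09 without that array (limma adjusted p = 0.505 and 0.778). With LPS the difference was 0.21 with the array and -0.08 without it.

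The mitochondrial trifunctional protein carries out the hydration, the second dehydrogenation and the cleavage of long chains. Hadha encodes its alpha subunit and was not measured. Hadhb, the beta subunit that holds the thiolase, read 6.14, 6.22 and 5.85 in unstimulated WT, 6.31, 6.26 and 6.25 in unstimulated KO, 6.11, 6.05 and 5.59 in WT with LPS and 6.10, 6.38 and 6.31 in KO with LPS (1426522_PM_at). All 3 unstimulated KO arrays lay above the unstimulated WT arrays, as did 8.82% of all probe sets, and in WT array 3 was the lowest under both conditions. The averaged difference was 0.27 ± 0.10 with a limma adjusted p of 0.217, and 0.24 (adjusted p = 0.287) without KO LPS array 2.

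The second Hadhb probe set (1442732_PM_at) read 4.16 to 4.43 on all 12 arrays. Its averaged difference was 0.07 ± 0.07 (limma adjusted p = 0.651), and it correlated with the first at r = 0.27. Neither Hadhb probe set was called in any contrast.

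Decr1, a dienoyl-CoA reductase encoded at chr4:15917240-15945377 (GRCm38.p6), handles intermediates of polyunsaturated chains that the core enzymes cannot process. Its brighter probe set (1419367_PM_at) read 3.95, 4.18 and 4.42 in unstimulated WT, 4.42, 4.72 and 4.46 in unstimulated KO, 4.36, 3.94 and 4.09 in WT with LPS and 4.75, 4.73 and 4.62 in KO with LPS. The KO LPS arrays all lay above the WT LPS arrays, while without LPS KO array 1 and WT array 3 both read 4.42 to that rounding and the groups overlapped. Group means were 4.18 ± 0.24 and 4.53 ± 0.16 (SD) for unstimulated WT and KO, and 4.13 ± 0.21 and 4.70 ± 0.07 with LPS.

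The averaged difference of this Decr1 probe set was 0.46 ± 0.10 log2, or 1.37-fold, with a 95% interval of 0.24 to 0.68 and adjusted p = 0.0405 (limma). It was 0.35 ± 0.14 unstimulated (adjusted p = 0.528) and 0.57 ± 0.14 with LPS (adjusted p = 0.133). Without KO LPS array 2, where 3.36% of all probe sets were called, the averaged call remained, at 0.45 with adjusted p = 0.0399. That fit had no replicate block. With the random block and without that array the call was lost (adjusted p = 0.075, limma). Without a block the call also held without WT unstimulated array 3, WT LPS array 1 or KO LPS array 3. In the other 8 fits that leave out 1 array the adjusted p was 0.0556 to 0.108. The difference lay between 0.40 and 0.52 in all 20 alternative fits.

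The dimmer Decr1 probe set (1449443_PM_at) read 1.68, 1.90 and 1.64 in unstimulated WT, 1.83, 2.09 and 1.99 in unstimulated KO, 1.81, 1.88 and 1.87 in WT with LPS and 1.88, 2.04 and 1.70 in KO with LPS. These values were below the median of all values, and the genotypes overlapped in both conditions. Its averaged difference was 0.13 ± 0.08 (limma adjusted p = 0.498), and its correlation with the brighter one was r = 0.37 over 12 arrays and 0.27 over 11. The call for Decr1 thus rests on 1 of its 2 probe sets.

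**Figure D2:**
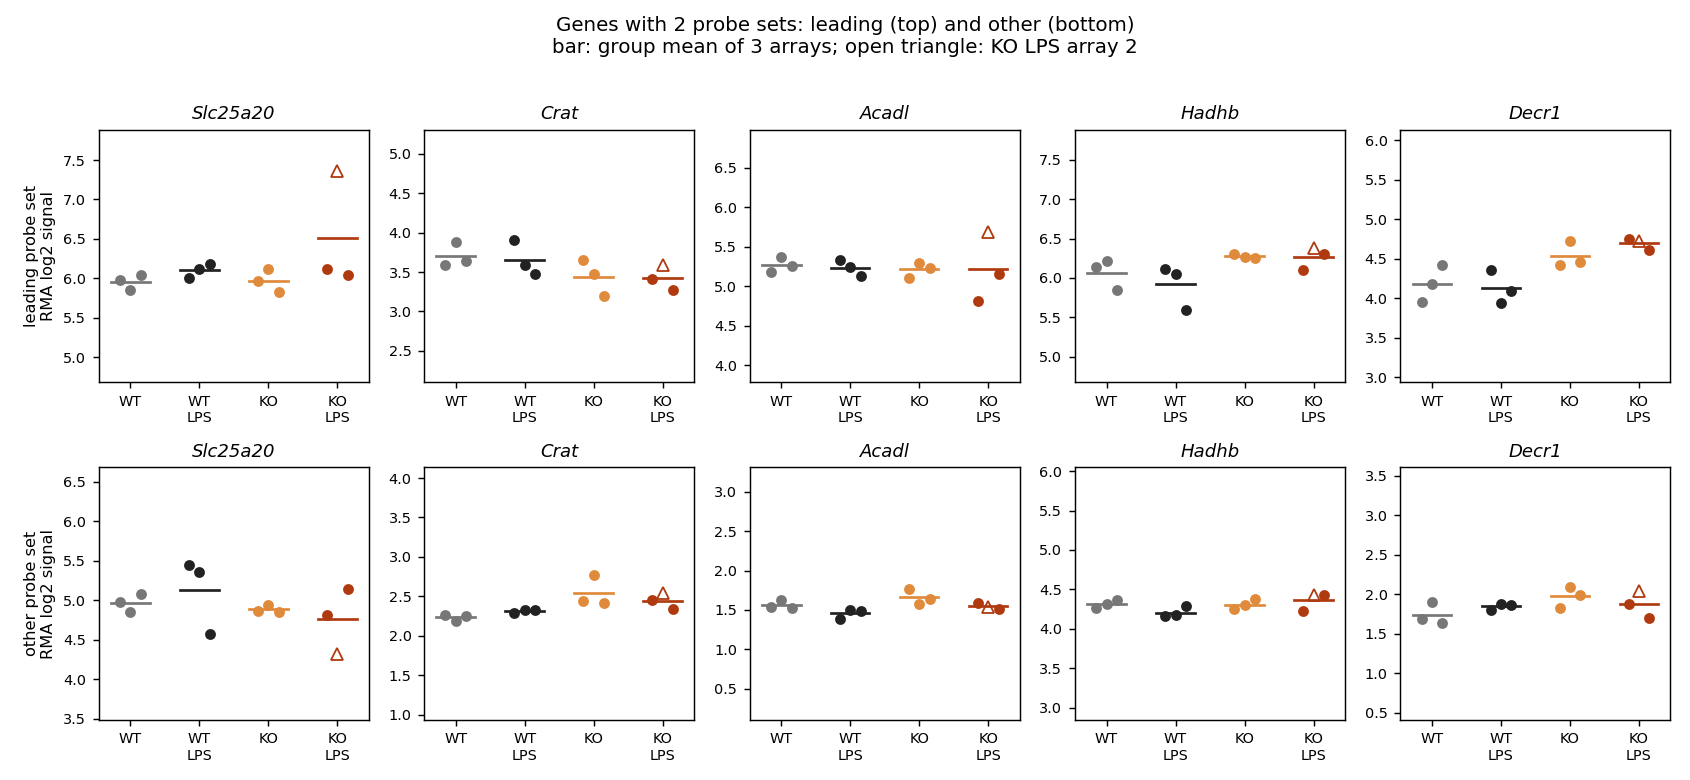
Log2 signal (vertical axis) by group for the 5 genes measured by 2 probe sets, the brighter in the top row and the other in the bottom row. Points are arrays, bars are means of 3 arrays and the open triangle is KO LPS array 2, which for Slc25a20 is the highest array in the top row (7.37) and the lowest in the bottom row (4.32).

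Across the 14 probe sets, KO exceeded WT in 10 without LPS and in 11 with LPS, as it did in 49.51% and 43.95% of all probe sets. Median differences of the members were 0.17 and 0.16 log2. The same medians over all probe sets were -0.00 and -0.03. Unadjusted p under 0.05 was reached by 3 and 4 of the 14 (limma), against 8.49% and 13.9% of all probe sets, and the smallest adjusted p was 0.432 and 0.133. Without KO LPS array 2 the LPS comparison had 8 of 14 above 0, a median of 0.08 and 2 at an unadjusted p under 0.05 (9.6% of all). The averaged contrast had 11 of 14 above 0 (45.15% of all probe sets). The members' median was 0.18, which became 0.09 without the array, against -0.02 and -0.01 over all probe sets. There 6 of the 14 had an unadjusted p under 0.05, as had 16% of all probe sets, namely Cpt2, the brighter probe sets of Decr1 and Hadhb, Cpt1a and both Crat probe sets, of which the brighter Crat pointed down. The count was 5 when KO LPS array 2 was left out, Cpt1a no longer among them, against 15.7% of all.

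With no overlap between groups as the measure, 2 of 14 probe sets were wholly higher in unstimulated KO (Hadhb and the dimmer Crat, against 8.82% of all) and none wholly lower (7.7% of all). With LPS 5 of 14 were wholly higher in KO, namely Cpt1a, Cpt2, the brighter Decr1 and the dimmer probe sets of Crat and Acadl. Of all probe sets 6.89% were wholly higher there and 10.2% wholly lower. Without array 2 the count higher was also 5, against 11% of all.

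**Figure D3:**
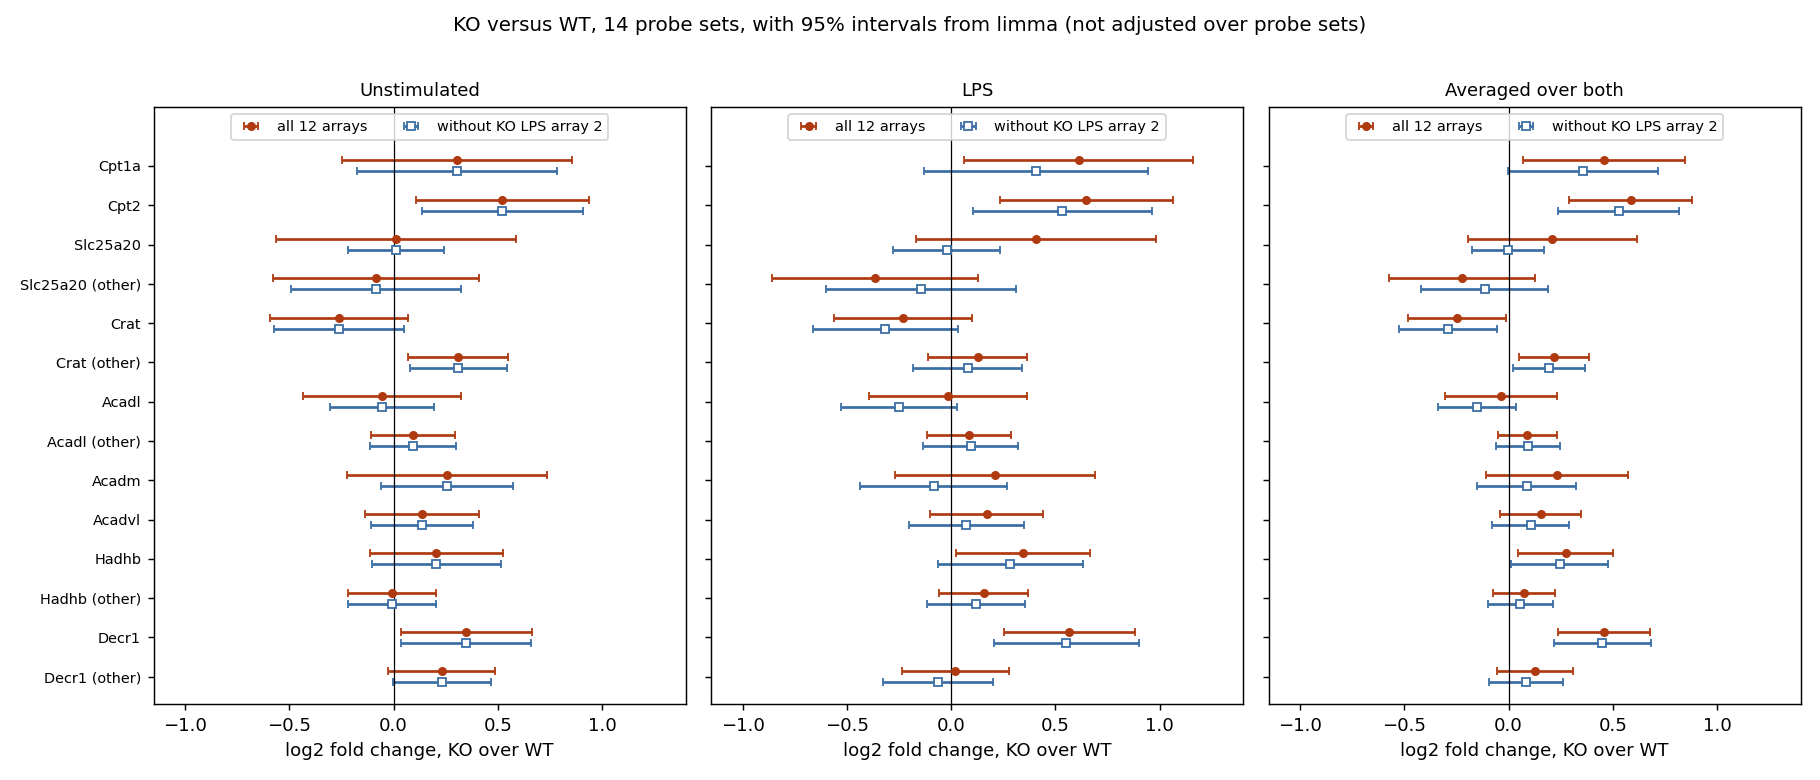
Log2 fold change of KO over WT for the 14 probe sets, unstimulated, with LPS and averaged, as limma estimates with 95% intervals, where "other" marks a gene's dimmer probe set. Filled circles use all 12 arrays and open squares leave out KO LPS array 2. With all 12 arrays the averaged intervals, not adjusted over probe sets, lie wholly above 0 for Cpt2 (0.58), the brighter Decr1 (0.46), Cpt1a, the brighter Hadhb and the dimmer Crat. That of the brighter Crat lies wholly below 0. Only Cpt2 and the brighter Decr1 were called. The first Slc25a20 probe set with LPS goes from 0.41 to -0.02.

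None of the 14 probe sets passed the test for LPS in either genotype. In WT 5 read higher and 9 lower, where 50.78% of all probe sets read higher. The differences ran from -0.37 ± 0.25 for Cpt1a to 0.16 ± 0.23 for the second Slc25a20 probe set. Their median was -0.04, with no unadjusted p under 0.05 (limma, 4.93% of all probe sets). In KO 5 read higher and 9 lower, where 44.49% of all probe sets read higher. The differences ran from -0.13 ± 0.23 to 0.54 ± 0.26, both Slc25a20 probe sets. Their median was -0.03, again with no unadjusted p under 0.05 (9.53% of all). Without array 2 the KO median was -0.10, the first Slc25a20 probe set stood at 0.11, and the smallest adjusted p was 0.643, for Acadm at -0.35 (95% interval -0.70 to 0.01).

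The LPS arrays lay wholly apart from the unstimulated ones for 2 probe sets in WT, the dimmer Crat higher (6.78% of all) and the dimmer Acadl lower (4.97% of all). In KO this held for none (5.58% of all higher and 7.87% lower), and without array 2 for Acadm, lower, as for 13.2% of all. The treatment itself was visible on the same arrays. Of 13 measured genes of a list of LPS-induced genes, 3 rose in WT and 6 in KO, and without KO LPS array 2 the counts were 8 and 7 (7 and 7 with the random block). The cytokine Il6 was called in both, higher by 2.33 ± 0.31 in WT and 3.04 ± 0.31 in KO (limma adjusted p = 0.00913 and 0.00102). Without KO LPS array 2 it was 2.63 in KO.

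Whether the LPS effect differed between genotypes was tested directly as the effect in KO minus that in WT. No member was called, and none had an unadjusted p under 0.05 (limma, smallest adjusted p = 0.957). Over all probe sets 0 (0%) were called and 1142 (3.95%) had an unadjusted p under 0.05. With all 12 arrays 9 member values were above 0 and 5 below, where 45.24% of all probe sets were above 0. The members ran from -0.28 ± 0.32 for the second Slc25a20 probe set to 0.40 ± 0.37 for the first. Cpt1a stood at 0.31 ± 0.36 (95% interval -0.47 to 1.09), Cpt2 at 0.13 ± 0.27 and Decr1 at 0.22 ± 0.20. Without KO LPS array 2 the split was 6 above and 8 below (smallest adjusted p = 0.999). The first Slc25a20 probe set then stood at -0.03, the second at -0.06, Cpt1a at 0.10, Cpt2 at 0.01, Decr1 at 0.20 and Acadm at -0.34, against -0.05 with the array.

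**Figure D4:**
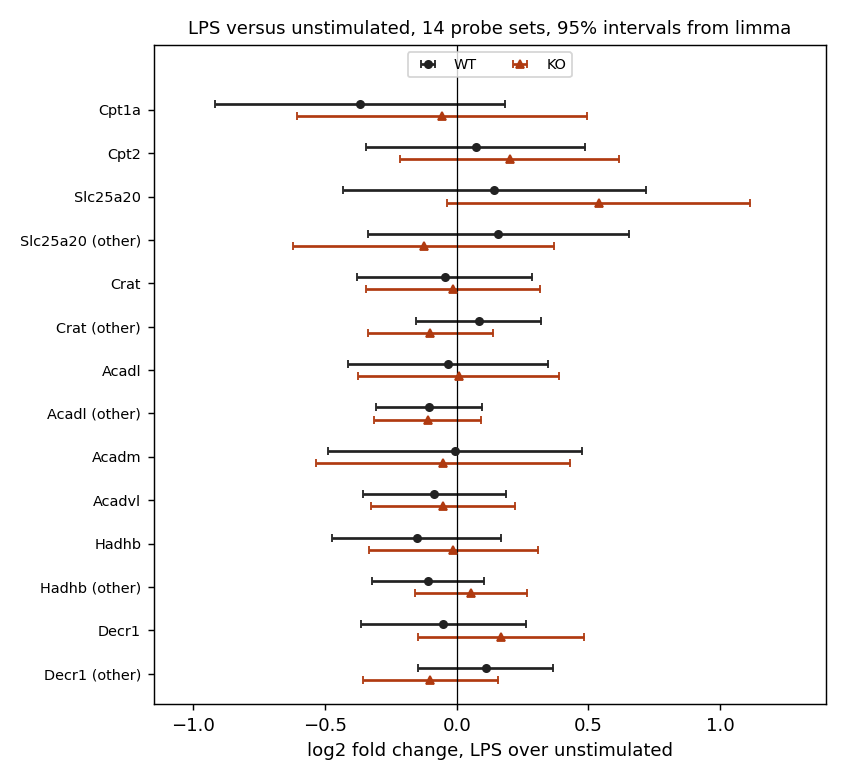
Log2 fold change of LPS over unstimulated for the 14 probe sets, as limma estimates from all 12 arrays with 95% intervals. Black circles are WT and red triangles KO, and "other" marks a gene's dimmer probe set. Every interval crosses 0, and the first Slc25a20 probe set in KO lies farthest out at 0.54.

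The other genes of fatty acid metabolism were taken from lists, with 1 probe set per gene (the brightest), for which 2.36% of 17097 genes were called in the averaged KO versus WT contrast and 16.3% had an unadjusted p under 0.05. The lists' counts below stand against these shares. These lists too were chosen with earlier results of these data known, so the counts carry no test. Among 20 measured genes of mitochondrial beta-oxidation beyond the 10, none was called in any contrast. Their median averaged difference was -0.01, and 3 had an unadjusted p under 0.05 (limma). The largest differences were 0.46 ± 0.24 for Hsd17b10, a hydroxyacyl-CoA dehydrogenase, and 0.39 ± 0.15 for Eci2, an enoyl-CoA isomerase (adjusted p = 0.383 and 0.23). They were 0.22 and 0.25 without KO LPS array 2.

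Peroxisomal beta-oxidation, which shortens very long chains, had 13 measured genes, 0 called and 3 with an unadjusted p under 0.05 in the averaged contrast (limma). Its median there was 0.02. Abcd2, a peroxisomal transporter of very-long-chain acyl-CoA, stood at 0.55 ± 0.15 (adjusted p = 0.0823), and Acaa1a, a peroxisomal thiolase, at 0.62 ± 0.22 (adjusted p = 0.182), or 0.38 without array 2.

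Regulators of the pathway, such as the PPAR nuclear receptors and the AMP-activated kinase, had 13 measured genes and 0 called in the averaged contrast. Their median was 0.08, and 0.02 without KO LPS array 2, and 1 had an unadjusted p under 0.05 (limma). Ppard stood at 0.17 ± 0.09 and the kinase subunit Prkaa1 at 0.22 ± 0.21, which became -0.02 without array 2. PPAR-responsive and ketone genes had 7 measured and 0 called, with a median of -0.01 and 2 at an unadjusted p under 0.05. The lipid droplet coat gene Plin2 stood at 0.28 ± 0.12 and the acyl-CoA thioesterase Acot1 at 0.41 ± 0.14 (adjusted p = 0.257 and 0.166).

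Genes of fatty acid uptake and lipid release had 11 measured, 0 called and 6 with an unadjusted p under 0.05 in the averaged contrast (limma), at a median of 0.26 (0.21 without KO LPS array 2). Abhd5, the activator of adipose triglyceride lipase, stood at 0.66 ± 0.19 (adjusted p = 0.0921) and the fatty acid binding protein Fabp4 at 0.60 ± 0.19 (adjusted p = 0.144). These 5 lists had 0 called members in each of the other 5 contrasts as well, with 0 to 4 genes of a list at an unadjusted p under 0.05. Of all genes 0.222% and 0.374% were called for KO against WT without and with LPS, 0.123% and 0.357% for LPS in WT and in KO, and 0% for the difference in LPS effect.

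On the opposite side of the balance, fatty acid synthesis had 9 measured genes. In the averaged contrast 1 was called, higher in KO, and 3 had an unadjusted p under 0.05 (limma), at a list median of 0.06. Scd1, the desaturase that makes monounsaturated fatty acids, rose in KO by 1.01 ± 0.12 on average (limma adjusted p = 0.00193) and by 1.16 ± 0.17 without stimulation (adjusted p = 0.0265). With LPS it stood at 0.85 ± 0.17 (adjusted p = 0.0726), and at 0.97 (adjusted p = 0.0387) without array 2. Fasn, fatty acid synthase, stood at -0.40 ± 0.17 with LPS (adjusted p = 0.321).

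Of 13 measured genes chosen to stand for mitochondrial content, 1 was called in the averaged contrast, higher in KO. Vdac1, the outer membrane channel, rose by 0.30 ± 0.07 with limma adjusted p = 0.0455. The call was lost without KO LPS array 2 (0.26, adjusted p = 0.0519) and with the random block (adjusted p = 0.0736). The list's median was 0.06, and 0.02 without the array.

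Within the pathway, arrays high for one member were often high for another, less so without KO LPS array 2. With the brightest probe set per gene, 31 of the 36 pairs of the 9 measured genes correlated above 0 over the 12 arrays, with a median r of 0.44. Over the 11 arrays without KO LPS array 2, 23 of 36 did, with a median of 0.15. The median deviation of the members from the unstimulated WT mean was 0.54 on that array and -0.15 to 0.26 on the other 11. The arrays share groups and normalisation, so these r values describe them and carry no test.

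Cpt1a ran closest to Hadhb (r = 0.74 over 12 arrays and 0.69 over 11), Acadvl (0.73 and 0.65) and Acadm (0.66 and 0.54). Cpt2 and the brighter Crat probe set ran in opposite directions, at -0.64 and -0.77. The dimmer Crat probe set, which had the opposite sign between genotypes, was not compared, so this does not hold for the gene. Among all 17096 other genes, those most like Cpt1a over the 12 arrays were Nudt19 (r = 0.93), Pcdhb17 (0.93), Yipf4 (0.91), Map10 (0.91) and Scaf8 (0.91). Over 11 arrays they were Ccnd3 (0.93), Pcdhb17 (0.93), Rtn3 (0.92), Map10 (0.92) and Nudt19 (0.91), of which Ccnd3 and Rtn3 had r = 0.38 and 0.04 with the array included. Pcdhb17, Map10 and Nudt19 were in both sets of 5.

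**Figure D5:**
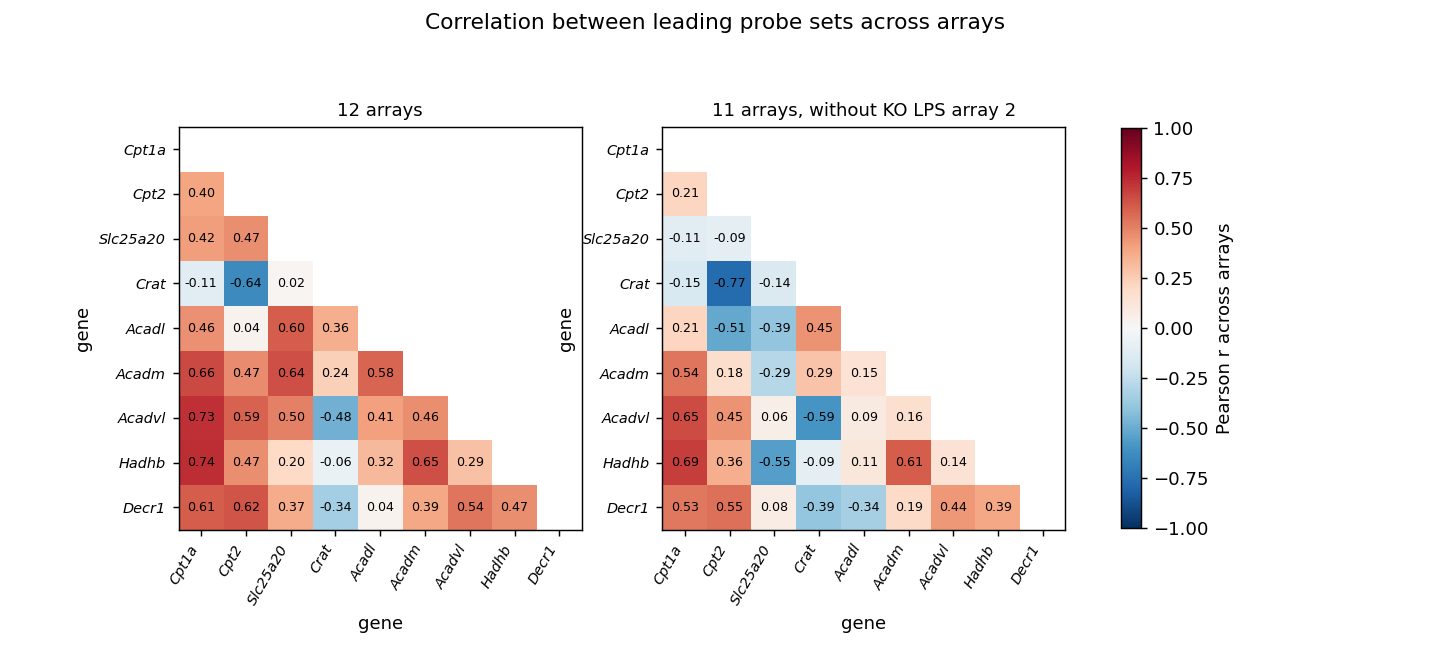
Pearson r between the 9 measured genes, brightest probe set each, over 12 arrays and over 11 without KO LPS array 2. Colour runs from blue (negative) to red (positive). Fewer pairs are red without the array (23 of 36 against 31 of 36), and Cpt1a with Hadhb (0.74 and 0.69) changes little.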

How the data were processed

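RNA was extracted with RNeasy, amplified with WT-Ovation Pico from oligo(dT) and random primers and hybridised to Affymetrix arrays, per the labels. The deposited values are log2 signals that the authors normalised with RMA, per the submitters' processing notes, with no RMA version named in the sources used here. RMA sets all arrays to 1 distribution, so a shift shared by all genes would not be seen, and dim probe sets compress differences.

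Of 45141 probe sets, 104 controls, 551 with several symbols and 15588 with none were left out, and 28898 with 1 symbol were fitted (28689 matched RefSeq by Entrez number). Group means were fitted with limma 3.58.1 in R 4.3.3 (lmFit, eBayes; 8 residual and 12.4 total degrees of freedom), with 6 contrasts, no filter and Benjamini-Hochberg adjustment over all probe sets. The limma fit was tested on simulated data. The number of arrays, 3 a group, limits precision.

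All members' probe sets are named. Of each other list, up to 3 called genes and up to 2 not called were eligible in each contrast, by largest absolute fold change. The members and lists were chosen with earlier results of these data known.

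Within a genotype, unstimulated and LPS arrays of the same replicate number deviated together (r = 0.352, 0.22 and 0.385 in WT, and 0.263, 0.25 and 0.387 in KO). The numbers were therefore taken as pairs in alternative fits, from the data and not from the labels. The main fit, which gave the values above unless another fit is named, had no such block. It treated same-numbered arrays as independent. The block was run as a random effect (duplicateCorrelation, consensus correlation 0.162, statmod 1.5.0). The other alternatives were 1 probe set per gene, a filter on dim probe sets, array weights, an intensity trend, median centring, the number as a block over all arrays, a fixed block for the LPS contrasts, and leaving out each array.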

Additional observations from a re-analysis of the deposited data

How the results depend on the processing

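Over all 84 member fold changes (14 probe sets in 6 contrasts) no call was reversed and no further member was called in any alternative, while 31 uncalled values changed sign in at least 1 alternative, the largest being 0.41 for Slc25a20 (KO against WT with LPS). In the averaged contrast the 2 member calls became 1 with an intensity trend, 1 with median centring, 0 with the random replicate block, 0 with that block and without KO LPS array 2, and 0 to 2 when 1 array was left out. Cpt2 was called in 7 and Decr1 in 9 of 20 alternatives. The counts over all probe sets moved more. Unstimulated KO against WT went from 47 to 202 with array weights, 222 with the number as a replicate block over all arrays, 297 with the random block without KO LPS array 2, and 6 to 246 leaving out 1 array. KO against WT with LPS went from 93 to 373 (number block), 158 (random block without that array) and 2 to 511. LPS in WT went from 37 to 20 (1 probe set per gene), 79 (weights), 80 (number block), 74 (random block), 106 (fixed block), 167 (random block without that array) and 11 to 104. LPS in KO went from 87 to 155, 135, 154, 198 and 207 in the same order from weights on, and 42 to 134. The averaged contrast went from 614 to 1136 (weights), 1267 (number block), 406 (random block) and 260 to 1243. The causes were not tested, beyond each fit's own fewer arrays or probe sets. The paired fits changed no member call other than those of Cpt2 and Decr1. Precision is limited by 3 arrays a group, and 3 member probe sets were under the median signal in every group, where a difference may be understated.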
